A study of Mus musculus with 16 samples.

Results

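The 38 genes described here encode the machinery of autophagy and of mitophagy, the selective autophagy of mitochondria. They were taken by symbol from a list of pathway members, and all 38 were found among the 55416 genes of the read-count table. RNA was measured in erythroblasts sorted from mouse foetal livers at E13.5, on a C57BL/6J background shared by all embryos. Wild-type (WT) embryos carried intact Nprl3. Nprl3-/- (KO) embryos carried, on both alleles, a constitutive deletion of the whole Nprl3 promoter region that leaves the α-globin enhancers inside the gene in place, and Nprl3+/- (Het) embryos carried it on 1 allele. Because the deletion is constitutive, every cell of the embryo carried it, not the erythroid cells alone. The livers came from 4 WT embryos (numbers 0, 1, 5 and 8), 2 Het embryos (3 and 4) and 2 KO embryos (2 and 9). From each liver an early population (S1) and a late population (S3) were sorted on the surface proteins Ter119 and CD71, which gave 16 libraries from 8 embryos.

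Autophagy encloses cytoplasm or organelles in a double membrane, the autophagosome, and delivers them to lysosomes. The ULK kinase complex starts the process, a class III PI3-kinase marks the forming membrane with a lipid, lipid-transfer proteins enlarge it, and a pair of ubiquitin-like conjugation systems attach proteins of the ATG8 family to it, where cargo receptors bind. Maturing erythroblasts are known for removing their mitochondria by this route, with Bnip3l (also called Nix) as a receptor on the mitochondrial surface. Nprl3 is a subunit of GATOR1, which restrains the growth kinase mTORC1 when amino acids are scarce, and mTORC1 restrains the ULK complex. The genotype comparisons therefore ask whether RNA of these genes differed when Nprl3 was lost, and the stage comparisons show how the same genes changed from S1 to S3.

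Reads assigned to genes numbered 20666044 to 37609502 per library. Nprl3 itself was counted 13 and 32 times in KO S1, where WT S1 had 881 to 1588 reads. In KO S3 it was counted 1730 and 2069 times, where WT S3 had 2953 to 3883 reads, so the counts at S3 do not by themselves check the KO label. The α-globin enhancers left in the gene are known to give transcripts that carry Nprl3 exons, and counts per gene cannot separate those from transcripts of the deleted promoter. Summed late erythroid markers were at 927 to 5220 CPM (read counts relative to the library's total, scaled by TMM factors across all 16 libraries) in WT S1 and at 107989 to 130695 in WT S3, and early erythroid markers at 156 to 233 and 5.57 to 7.64. GEO's tissue field names the embryonic stem cell line E14TG2a, whereas titles, protocols and these markers describe foetal liver erythroblasts. WT S1 libraries fell apart from each other. Embryos 0 and 8, both male, held 1.07% and 1.00% globin reads against 0.184% and 0.290% in embryos 1 and 5, both female. They also held less RNA of granule-protein genes, a list of 11 neutrophil markers with the defining Ly6g at 0: over the WT S1 libraries its sum ran from 120 CPM in embryo 8 to 1281 in embryo 1. In Het S1 that sum was 1520 to 1535, in KO S1 1573 to 1653, and in all S3 libraries at most 14.9. In WT, both male libraries lay above both female libraries for 19 members at S1 and 20 at S3 (background 25.8% and 28.5% of all genes) and below for 4 and 7 (background 25.9% and 28.0%), so sex, stage within the gate and library cannot be told apart among the WT embryos. The main counts, and values of named members that moved without embryos 0 and 8, are also given without them.

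The first comparison asked how the members differed between S3 and S1 in WT. All 38 passed the filter on low counts, 25 were higher at S3 and 8 were lower (edgeR quasi-likelihood test, Benjamini-Hochberg adjusted p under 0.05 over 13514 genes). Over all genes tested 30.6% were higher and 35.0% lower. The median log2 fold change of the members was 1.78, against −0.08 over all genes. Libraries of the stages did not overlap for 23 members higher at S3 (background 28.6%) and 6 lower (background 32.0%). Without embryos 0 and 8, 24 were higher and 7 lower. RNA was compared as a share of each library, and in bulk samples fewer cells of a type and less RNA per cell cannot be told apart. The scaling mattered for weakly changed members: with plain library sizes in place of TMM factors the median of all genes moved to −1.15, that of the members to 0.75, and 21 members were higher and 13 lower. The shares of all genes given above belong to the main fit. They cannot be set beside member counts from other settings, here or below. Between stages the granule genes fell as given above, summed macrophage markers were at 33.1 to 56.6 CPM in WT S1 and 53.8 to 107 in WT S3, and hepatoblast markers at 64.3 to 358 and 218 to 971. Their part in the stage differences was not tested.

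**Figure D1:**
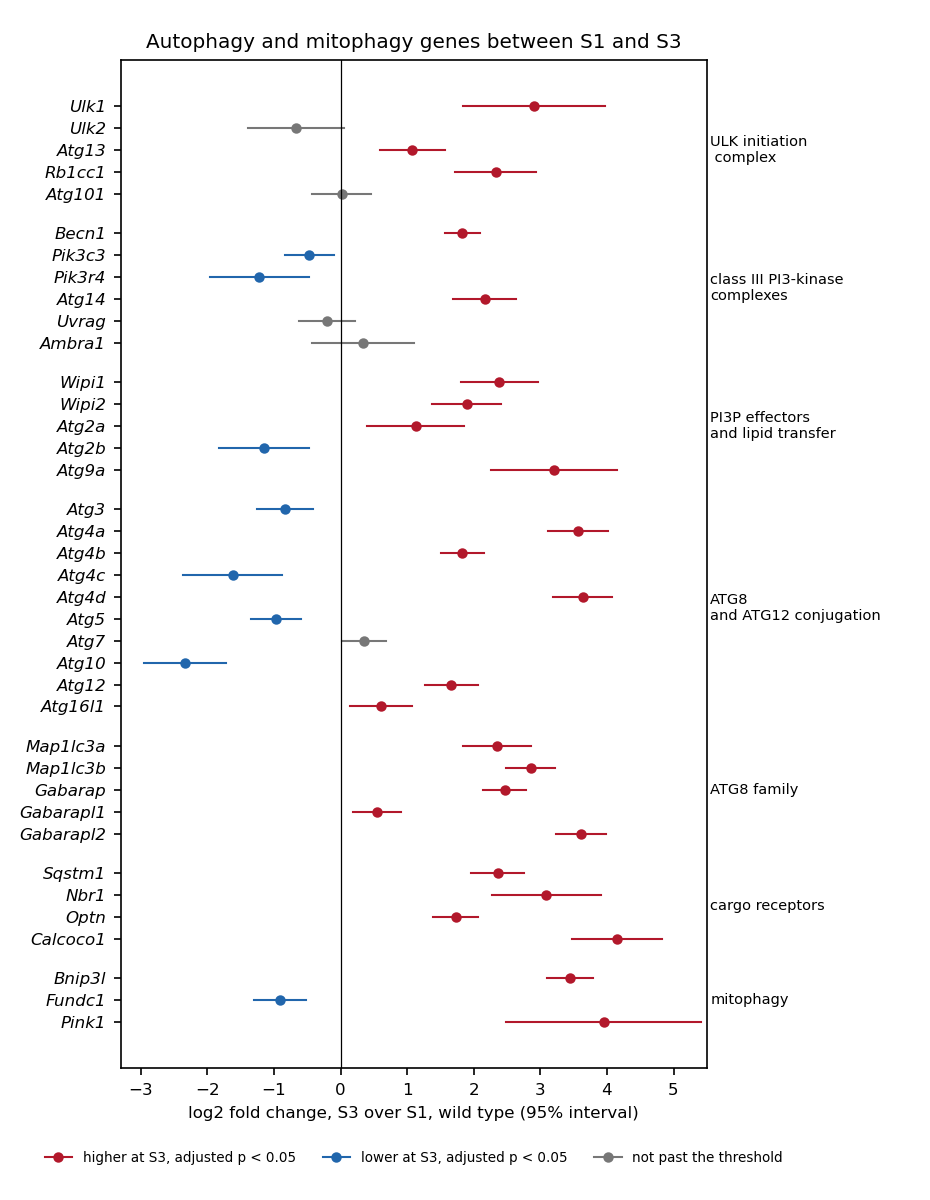
Log2 fold changes from S1 to S3 in WT for the 38 genes, grouped by role on the vertical axis. Points are edgeR estimates over 4 embryos, bars are 95% confidence intervals and colours show the call at adjusted p under 0.05. The 5 genes of the ATG8 family and the 4 cargo receptors all lie to the right of 0, whereas the conjugation enzymes lie on both sides.

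Mitophagy genes held the most abundant member. Bnip3l (ENSMUSG00000022051.16, mm39 chr14:67222688-67246326) was at 206, 207, 181 and 179.7 CPM in WT S1 of embryos 0, 1, 5 and 8, and at 1952, 2078, 1981 and 2403 CPM in WT S3. Every S3 library was far above every S1 library, and the rise was 3.44 ± 0.16 (log2 fold change ± SE, adjusted p = 2.32e-07, edgeR). Per kilobase of exon, with all annotated exons of a gene joined, its level went from 50.1 ± 3.9 to 545 ± 54 CPM per kb (SD, n = 4), and its rank among 13402 genes from 1035 to 100. The order of genes on this scale depends on that length. It has an annotated pseudogene copy, so part of its reads could be shared with that copy. Pink1, the kinase that marks damaged mitochondria for removal, was at 14.5, 3.00, 8.12 and 22.0 CPM in WT S1 and at 246, 88.3, 73.6 and 314 in WT S3. The stages did not overlap (3.95 ± 0.66, adjusted p = 0.000384, edgeR), but the male embryos 0 and 8 stood above the female embryos 1 and 5 at both stages, and the highest WT S3 value was 4.26 times the lowest. Fundc1, a receptor in the outer mitochondrial membrane linked to hypoxia, fell by 0.91 on the log2 scale (SE 0.17, adjusted p = 0.000999, edgeR), against the direction of the other mitophagy members.

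All 5 members of the ATG8 family, the ubiquitin-like proteins that coat the autophagosome, were higher at S3 (background 30.6% of all genes). Gabarapl2 (ENSMUSG00000031950.8, mm39 chr8:112667335-112680244) was at 56.9, 59.0, 56.8 and 43.7 CPM in WT S1 and at 573, 706, 650.2 and 707 in WT S3. This was the largest rise of the family (3.61 ± 0.17, adjusted p = 2.72e-07, edgeR), and its level per kilobase in WT S3, 283 ± 27, was second among the members to that of Bnip3l. Map1lc3b, which encodes the widely used autophagosome marker LC3B, was at 137, 138, 134 and 102 CPM in WT S1 and at 806, 941, 964 and 981 in WT S3 (2.85 ± 0.17, adjusted p = 5.66e-07, edgeR). Gabarap rose by 2.46 ± 0.15 and the low-level Map1lc3a by 2.34 ± 0.23, without overlap of the stages. Gabarapl1 was at 60.3, 39.9, 63.0 and 59.2 CPM in WT S1 and at 81.2, 77.3, 73.7 and 91.0 in WT S3. Its rise of 0.55 ± 0.16 (adjusted p = 0.0122, edgeR) was small and hung on the scaling: with plain library sizes it reversed to −0.48, with upper-quartile factors it was 0.37 (adjusted p = 0.0638), and without embryos 0 and 8 it was 0.55 (adjusted p = 0.0694). Counts were made without regard to strand, and Map1lc3b and Gabarapl1 each overlap a gene on the other strand. So do Rb1cc1, Becn1, Pik3r4, Atg14, Uvrag, Atg2b, Atg9a, Atg4b, Atg4d, Atg10, Sqstm1 and Optn.

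**Figure D2:**
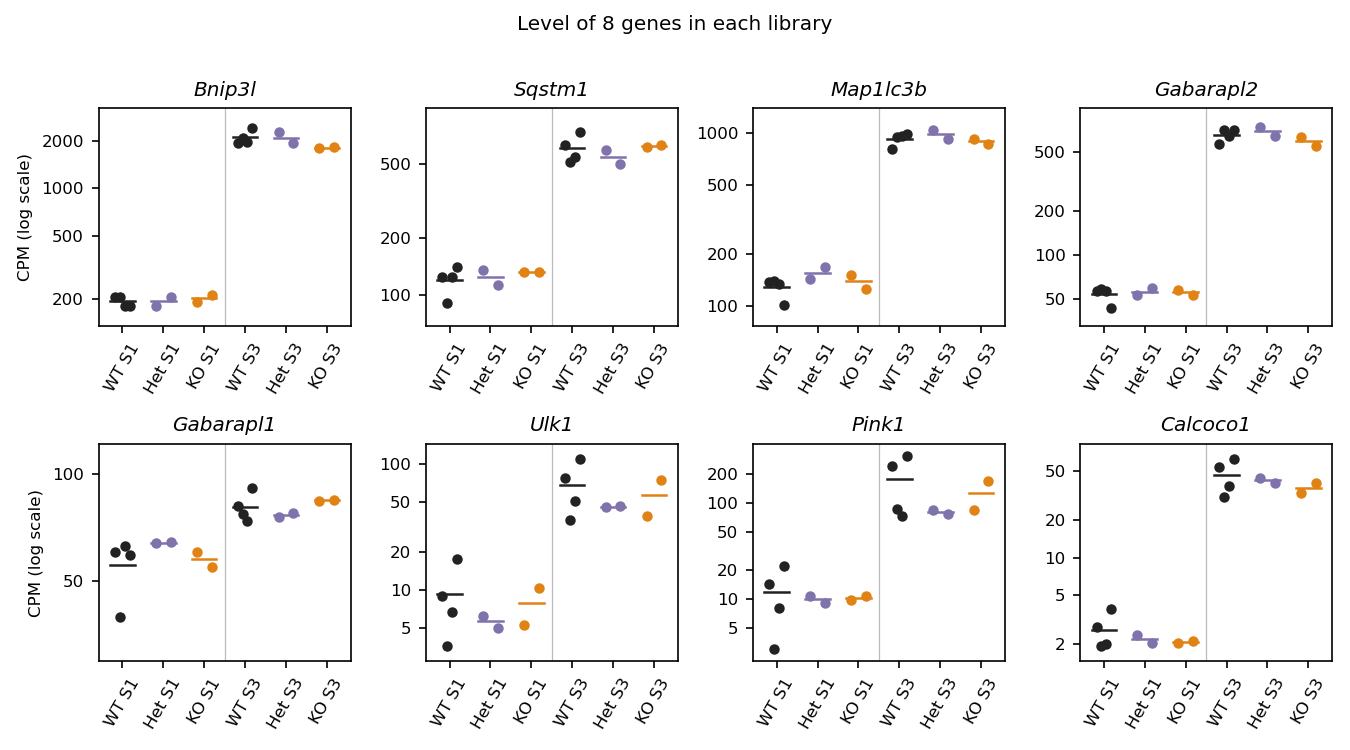
Level of 8 members in each of the 16 libraries, as TMM-scaled CPM on a log axis, by genotype and stage. Points are libraries and short lines are group means. Bnip3l stands at 179.7 to 207 CPM in WT S1 and at 1952 to 2403 in WT S3, Gabarapl1 shifts little, and the WT S3 points of Ulk1 and Pink1 are spread widely.

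Because the family members changed to different extents, their shares of the family's summed CPM per kilobase changed as well. Gabarapl2 made up 23.3% ± 2.4 of the ATG8 sum in WT S1 and 45.6% ± 1.3 in WT S3 (SD, n = 4). Gabarapl1 went the other way, from 27.6% ± 5.0 to 6.49% ± 0.81, and Gabarap from 28.7% ± 1.4 to 25.4% ± 1.1. Map1lc3b, at 16.96% and 19.7%, and Map1lc3a, at 3.39% and 2.76%, overlapped between stages and were not called. Shares of 12 paralogs in 5 families were tested, and 9 were called (2-sided exact permutation test, p = 0.0286 each, the smallest that 4 against 4 libraries allow, Benjamini-Hochberg adjusted p = 0.0381). With shares of raw counts in place of CPM per kb, 9 were called as well. The S1 and S3 libraries of an embryo are paired, and a sign-flip test over the 4 embryos cannot go below 0.125. Among the ATG4 proteases, which trim ATG8 proteins before and after use, Atg4b was the largest share at S1 and the third at S3: it went from 38.4% ± 1.8 to 16.6% ± 2.2, while Atg4a went from 32.7% ± 0.19 to 46.4% ± 3.6 and Atg4d from 24.3% ± 1.7 to 36.9% ± 1.5. Order within a family depends on the exon lengths: by CPM, Atg4d stood above Atg4a in every WT library. Ulk1 made up 63.7% ± 9.4 of the Ulk1 and Ulk2 sum in WT S1 and 95.7% ± 1.5 in WT S3, and Atg2a 40.1% ± 9.6 and 75.9% ± 1.4 of the Atg2 sum. In the KO embryos the mean Gabarapl2 share was 22.2% at S1 and 42.7% at S3, and the Gabarapl1 share 26.6% and 7.02%, which are given as values only.

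**Figure D3:**
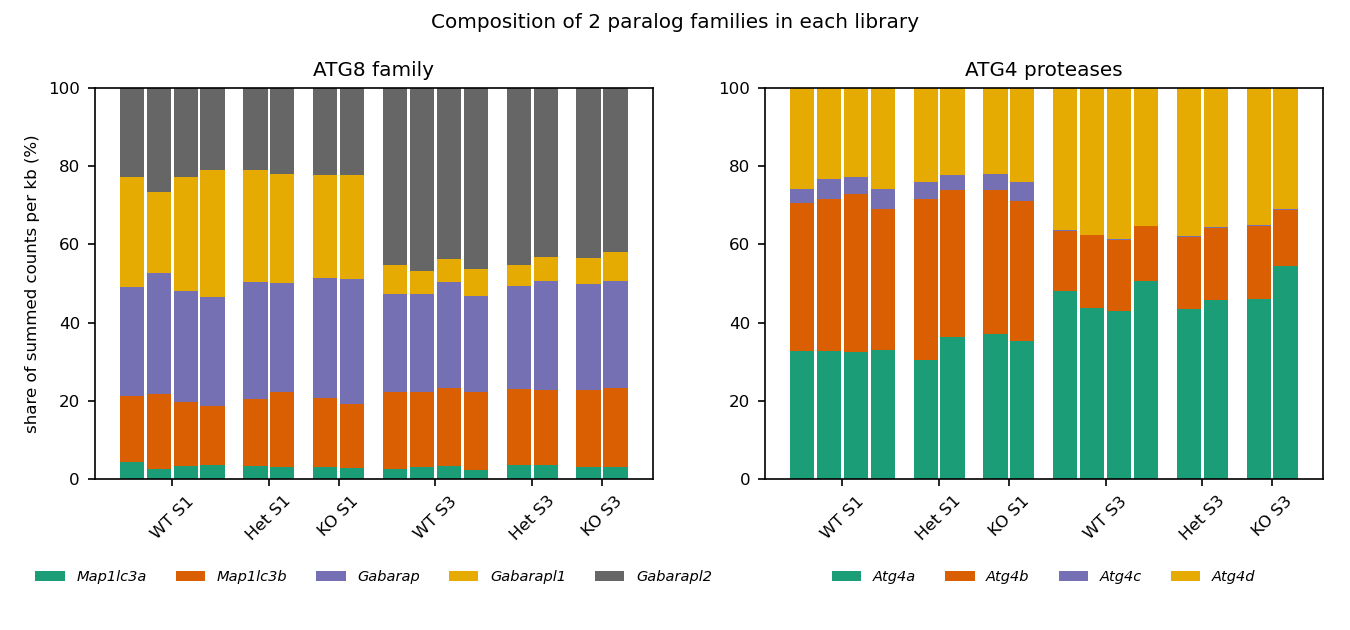
Stacked bars of each paralog's share, in percent of the family's summed CPM per kb, in each of the 16 libraries for the ATG8 family and the ATG4 proteases. The Gabarapl2 share is 45.6% on average in WT S3 against 23.3% in WT S1, the Gabarapl1 share shrinks, and Atg4b gives way to Atg4a and Atg4d, in libraries of each genotype.

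Of the conjugation enzymes, 5 of 10 were higher and 4 lower at S3 (background 30.6% and 35.0% of all genes). The largest rises were those of the proteases. Atg4d was at 37.2, 24.1, 29.2 and 45.9 CPM in WT S1 and at 419, 375, 423 and 464 in WT S3 (3.64 ± 0.20, adjusted p = 4.43e-07, edgeR). Atg4a was at 19.6, 14.1, 17.4 and 24.3 and then at 230.5, 181, 196 and 277 (3.57 ± 0.20, adjusted p = 5.18e-07, edgeR). Neither overlapped between the stages, although Atg4d overlaps a gene on the other strand and Atg4a has a pseudogene copy. Atg12, which is joined to Atg5, rose by 1.66 ± 0.18. Its partner Atg5 was at 73.9, 84.4, 78.8 and 60.1 CPM in WT S1 and at 33.1, 45.3, 39.3 and 34.5 in WT S3, which was lower by −0.97 ± 0.17 (adjusted p = 0.000539, edgeR). The E2-like enzymes were lower as well, Atg10 from 7.53, 10.3, 9.61 and 5.39 CPM to 1.63, 1.93, 1.61 and 1.303 (−2.34 ± 0.28, adjusted p = 3.8e-05, edgeR), and Atg3 by −0.84 ± 0.19. The genes of this conjugation step did not share a direction, and the E1-like Atg7 (0.35 ± 0.15, adjusted p = 0.057, edgeR) was not called, though it was with DESeq2 (0.37, adjusted p = 0.0394), and in edgeR with the embryo as a block (0.35, adjusted p = 0.0393) and without embryo 8 (0.41, adjusted p = 0.0385). Atg4c, the lowest member per kilobase at S3, had 82 to 199 raw counts in WT S1 and 8 to 37 in WT S3 (−1.62 ± 0.33). Atg16l1, the scaffold of the Atg5 complex, rose by 0.61 ± 0.21 (adjusted p = 0.0248, edgeR), and this call was lost without embryo 0 (0.56, adjusted p = 0.12), without embryo 5 (0.53, adjusted p = 0.146) with upper-quartile factors (0.43, adjusted p = 0.0818), with no filter on low counts (0.55, adjusted p = 0.0586) and with factors over all detected genes (0.55, adjusted p = 0.0504), while with plain library sizes the value was −0.43. It was kept without embryos 0 and 8 (0.75, adjusted p = 0.0233).

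Sequence upstream of the start site was examined for members with a RefSeq promoter window (GRCm38.p6 table, 250 bases before the start), since GATA1 is the main erythroid transcription factor. Windows were found for 31 of 38 members. The GATA letters AGATAA or TGATAA or AGATAG or TGATAG, on either strand, occurred in 4 of 31 members (12.9%) and in 29.7% of 27025 genes with a window. These were Atg4a, Atg4d, Nbr1 and Pink1, which are 4 of the 19 members higher at S3 with a window (21.1%, also below the share of all genes). None of the 7 lower members and none of the 5 members not called had them, and neither did Calcoco1, the member with the largest rise. Atg4a and Nbr1 have a second window each, without the letters. The letters CACGTG occurred in Atg3, Atg5 and Atg7 (9.68% of members, 6.86% of genes). GTAAACA, found in 3.54% of genes, and TGATGNAA, found in 3.91%, occurred in no member. A match describes letters in the window and is not a measured site. The stretches upstream of 4 of the strongest risers are shown for reading beside their folds, 5′ to 3′ on the gene's strand, each ending before the first annotated exon, with GATA letters in capitals. They match mm39 exactly at chrX:139854344-139854544 (Atg4a, plus strand), chr9:21176331-21176495 (Atg4d, plus), chr4:138053619-138053857 (Pink1, minus) and chr8:112667085-112667321 (Gabarapl2, plus, without a match).
Atg4a: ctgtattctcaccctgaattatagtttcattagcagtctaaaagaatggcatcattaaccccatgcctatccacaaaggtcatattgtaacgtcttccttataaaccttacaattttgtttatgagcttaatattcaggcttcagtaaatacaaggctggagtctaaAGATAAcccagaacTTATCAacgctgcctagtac
Atg4d: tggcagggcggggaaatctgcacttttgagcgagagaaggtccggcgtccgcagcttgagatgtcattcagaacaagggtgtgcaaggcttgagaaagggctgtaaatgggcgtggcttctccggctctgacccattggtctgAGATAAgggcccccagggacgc
Pink1: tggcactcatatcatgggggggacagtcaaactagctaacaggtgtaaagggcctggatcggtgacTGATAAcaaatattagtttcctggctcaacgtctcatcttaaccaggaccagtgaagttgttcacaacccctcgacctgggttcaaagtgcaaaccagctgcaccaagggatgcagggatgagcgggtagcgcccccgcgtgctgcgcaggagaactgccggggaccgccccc
Gabarapl2: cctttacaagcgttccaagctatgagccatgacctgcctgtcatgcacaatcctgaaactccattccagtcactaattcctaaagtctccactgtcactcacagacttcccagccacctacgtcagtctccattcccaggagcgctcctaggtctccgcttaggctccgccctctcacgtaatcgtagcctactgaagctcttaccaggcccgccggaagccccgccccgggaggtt
The Atg4a window shown belongs to the upstream of its 2 RefSeq starts and holds matches at 83, 69 and 38 bases before that start, of which the last lies past the printed stretch, and those of Atg4d and Pink1 lie at 107 and 184 bases. The printed Atg4a stretch lies outside the counted gene, which starts at chrX:139857656. Its second window, chrX:139857406-139857655, ends directly before that start and has no GATA match.

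All 4 cargo receptors, which link ubiquitinated or other cargo to ATG8 proteins, were higher at S3 (background 30.6% of all genes). Sqstm1, which encodes p62, was at 125, 90.4, 124 and 140.2 CPM in WT S1 and at 634, 511, 549 and 746 in WT S3 (2.36 ± 0.18, adjusted p = 2.04e-06, edgeR). Calcoco1, a receptor for endoplasmic reticulum and Golgi, was the lowest member per kilobase at S1. It was at 2.76, 1.95, 2.00 and 3.83 CPM in WT S1 and at 54.2, 30.8, 37.96 and 62.4 in WT S3, the largest fold change of the 38 (4.15 ± 0.30, adjusted p = 1.78e-06, edgeR). Nbr1 rose by 3.09 ± 0.37 and Optn, a receptor used in mitophagy, by 1.73 ± 0.15. The stages did not overlap for any of the receptors. Per kilobase in WT S3 the order of levels was Bnip3l, Gabarapl2, Sqstm1 (182 ± 31), Gabarap (158 ± 16) and Map1lc3b (123 ± 11), and the libraries of Sqstm1 and Gabarap overlapped. By CPM the order differed, with Map1lc3b above Gabarapl2 in every WT S3 library.

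In the ULK initiation complex 3 of 5 members were higher at S3 (background 30.6% of all genes). Ulk1, the kinase that mTORC1 restrains, was at 9.03, 3.61, 6.69 and 17.8 CPM in WT S1 and at 77.2, 35.9, 50.6 and 109 in WT S3. The stages did not overlap, and the rise was 2.91 ± 0.48 (adjusted p = 0.000378, edgeR), with embryo 8 the highest at both stages. Its scaffold Rb1cc1, also called FIP200, rose by 2.33 ± 0.28, and Atg13, the adaptor between them, by 1.08 ± 0.22, which was 0.03 with plain library sizes (adjusted p = 0.902, edgeR). Ulk2, the related kinase, had 135 to 281 raw counts in WT S1 and 39 to 87 in WT S3 and was not called (−0.67 ± 0.32, adjusted p = 0.0911, edgeR). It was called lower with upper-quartile factors (−0.84, adjusted p = 0.0395), with plain library sizes (−1.70, adjusted p = 0.00113), with the embryo as a block (−0.71, adjusted p = 0.0409) and without embryos 0 and 8 (−0.91, adjusted p = 0.0475). Atg101 stood at 0.02 ± 0.20 and its sign changed with the scaling: with plain library sizes it was called lower (−0.999, adjusted p = 0.00054, edgeR). Atg7, described above, was then also called lower (−0.68, adjusted p = 0.0025, edgeR).

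In the class III PI3-kinase complexes 2 of 6 members were higher at S3 and 2 lower (background 30.6% and 35.0% of all genes). Becn1, the subunit that regulates the kinase, rose by 1.83 ± 0.12 (adjusted p = 9.99e-07, edgeR), although it shares its locus with a gene on the other strand. Atg14, which directs the complex to autophagosome formation, was at 7.38, 6.68, 7.25 and 11.6 CPM in WT S1 and at 37.6, 30.2, 32.1 and 46.3 in WT S3 (2.17 ± 0.21, adjusted p = 1.04e-05, edgeR). The catalytic subunit Pik3c3 was at 26.6, 23.0, 29.7 and 39.0 and then at 20.3, 20.9, 23.3 and 20.2. The ranges overlap slightly, and its difference of −0.47 ± 0.16 (adjusted p = 0.0276, edgeR) was lost without embryo 0 (−0.49, adjusted p = 0.102), without embryo 5 (−0.51, adjusted p = 0.0977), without embryo 8 (−0.27, adjusted p = 0.164), without embryos 0 and 8 (−0.26, adjusted p = 0.31) and with no filter on low counts (−0.52, adjusted p = 0.0531). Its regulatory partner Pik3r4 was lower by −1.22 ± 0.34 (adjusted p = 0.00834, edgeR), or −0.79 without embryos 0 and 8 (adjusted p = 0.0707). Uvrag (−0.20 ± 0.19) and Ambra1 (0.33 ± 0.35) were not called, although with plain library sizes Uvrag was called lower (−1.24, adjusted p = 0.00045, edgeR).

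Of the PI3P effectors and lipid-transfer genes 4 of 5 were higher (background 30.6% of all genes). Atg9a, the scramblase of the vesicles that seed the autophagosome, rose by 3.21 ± 0.43 (adjusted p = 8.5e-05, edgeR), with the caveat of a gene on the other strand. Wipi1 and Wipi2, which read the lipid mark, rose by 2.39 ± 0.26 and 1.89 ± 0.23. The bridge-like lipid-transfer genes parted: Atg2a was higher by 1.13 ± 0.33 (adjusted p = 0.011, edgeR), which did not hold without embryo 0 (0.96, adjusted p = 0.0761) or with plain library sizes (0.08, adjusted p = 0.845) and was kept without embryos 0 and 8 (1.01, adjusted p = 0.015). Atg2b, at 16.1, 26.8, 12.96 and 27.6 CPM in WT S1 and 10.3, 6.01, 8.22 and 12.9 in WT S3, was lower by −1.15 ± 0.30 (adjusted p = 0.00668, edgeR).

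The same stage comparison was made within the other genotypes, whose fold changes rest on their own libraries, while the estimate of spread came from all 16. In KO, 25 of 38 members were higher at S3 and 5 lower (background 26.9% and 30.0% of 13402 genes), with a median log2 fold change of 1.81. In Het, 24 were higher and 5 lower (background 28.9% and 32.4%), with a median of 1.604. By their calls, 24 members were higher in all 3 genotypes, 5 were lower in all 3, 5 were called in none, and no member was called in opposite directions. The matching shares over all genes were not counted, so this agreement cannot be read as a trait of the members. With the embryo as a block 7 members were lower in KO and 7 in Het. With 1 embryo of the pair left out, 22 were higher and 4 lower in KO, and 20 to 21 higher and 4 lower in Het. Atg4c, with few counts, lost its call without KO embryo 2 (−1.58, adjusted p = 0.0594) or 9 (−0.82, adjusted p = 0.29) and without Het embryo 3 (−1.12, adjusted p = 0.165) or 4 (−1.65, adjusted p = 0.0604), and Atg3 without KO embryo 9 (−0.67, adjusted p = 0.145, all edgeR). Bnip3l rose by 3.16 ± 0.17 in KO and 3.44 ± 0.17 in Het (adjusted p = 1.08e-08 and 6.56e-09, edgeR). Ulk1 rose by 2.85 ± 0.65 and 3.03 ± 0.65, and Pink1 by 3.64 ± 0.81 and 3.03 ± 0.79. The strongest rise was again that of Calcoco1, by 4.12 ± 0.38 in KO and 4.23 ± 0.38 in Het, and the strongest fall that of Atg10, −2.37 ± 0.37 and −2.24 ± 0.35. Gabarapl2 was at 58.2 and 53.0 CPM in KO S1 and at 634 and 556 in KO S3 (3.42 ± 0.19), and at 53.5 and 59.2 and then 746 and 644 in Het (3.62 ± 0.19). Pik3c3 was at 29.1 and 29.4 CPM in KO S1 and at 35.2 and 24.9 in KO S3, and its change was 0.04 ± 0.23 (adjusted p = 0.9, edgeR). By sign alone, Pik3r4 was lower at S3 within all 8 embryos, and Pik3c3 and Atg2b within all but 1. Pik3c3, Pik3r4 and Atg2b were called lower in WT and not in KO or Het, and Gabarapl1 was called in WT and KO and not in Het (0.26 ± 0.19, adjusted p = 0.26, edgeR). Such differences in calls are not tests of a difference between genotypes. In the KO and Het S1 libraries the granule sum given above was higher than in WT S1, and its part in these stage differences was not tested.

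Loss of Nprl3 was compared with WT at S3. RNA levels of these genes measure neither how far mTORC1 restrains the ULK complex nor autophagy itself. None of the 38 members passed edgeR's test at adjusted p under 0.05 (background 0.559%, 66 of 11804 genes), and 1 had an unadjusted p under 0.05 (background 8.52%). The log2 fold changes ran from −0.47 for Pink1 to 0.52 for Pik3c3. Pink1 was at 85.4 and 172 CPM in KO S3, and without WT embryos 0 and 8 its value turned to 0.69 (adjusted p = 0.687, edgeR). The count stayed at 0 with DESeq2, and also without embryos 0 and 8, where the calls over all genes fell from 66 to 5 of 11793. With sex in the model it was 1 member, Pik3c3, with edgeR and also with DESeq2, in fits that called 4.63% and 6.18% of all genes. Pik3c3, the catalytic subunit named above, was at 20.3, 20.9, 23.3 and 20.2 CPM in WT S3, at 21.7 and 23.3 in Het S3 and at 35.2 and 24.9 in KO S3. Both KO libraries lay above the WT range, by very different margins, and the difference was 0.52 ± 0.17 (95% confidence interval 0.12 to 0.91, unadjusted p = 0.0164, adjusted p = 0.367, edgeR). It was 0.24 without KO embryo 2 and 0.75 without KO embryo 9 (adjusted p = 0.996 and 0.284), and 0.50 with sex in the model (adjusted p = 0.0416, edgeR).

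Libraries of KO and WT at S3 did not overlap for 3 members (background 18.5%), Pik3c3 and Optn higher and Bnip3l lower in KO. Bnip3l was at 1793 and 1817 CPM in KO S3 against 1952 to 2403 in WT S3, a difference of −0.21 ± 0.14 (confidence interval −0.53 to 0.12, adjusted p = 0.807, edgeR). Optn was at 102 and 118 CPM against 97.5, 73.4, 96.8 and 97.5 (0.28 ± 0.16, adjusted p = 0.721, edgeR). The other members with the smallest p values overlapped between genotypes. Atg14 was at 23.7 and 32.6 CPM in KO S3 (−0.36 ± 0.22), Atg5 at 51.0 and 40.4 (0.28 ± 0.18) and Pik3r4 at 7.74 and 10.0 (0.34 ± 0.22), with adjusted p from 0.739 to 0.79 in edgeR. Without embryos 0 and 8 these values were −0.13, 0.13 and 0.51, that of Optn 0.38, that of Bnip3l −0.15, that of Sqstm1, described next, 0.25, and that of Pik3c3 0.46. Late erythroid markers also summed to less in KO S3 (98760 to 99971 CPM) than in WT S3, macrophage markers to 25.98 to 38.5 CPM (with Cd163 at 0) against 53.8 to 107, and hepatoblast markers to 102 to 266 against 218 to 971. Their part in the members' values was not tested. For the key members the intervals bound the difference that these 2 KO embryos could hide. The ATG8 family lay within −0.47 to 0.57 (confidence bounds over its 5 genes), with Map1lc3b at 923 and 864 CPM and Gabarapl2 at 634 and 556 in KO S3. Sqstm1, at 618 and 631 CPM, lay within −0.34 to 0.43 around 0.05. Ulk1 stood at 38.9 and 74.4 CPM in KO S3, inside the WT range, and its interval of −1.23 to 0.72 leaves changes of more than 1 log2 unit possible. Without embryos 0 and 8 the Ulk1 value was 0.40 in place of −0.25.

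**Figure D4:**
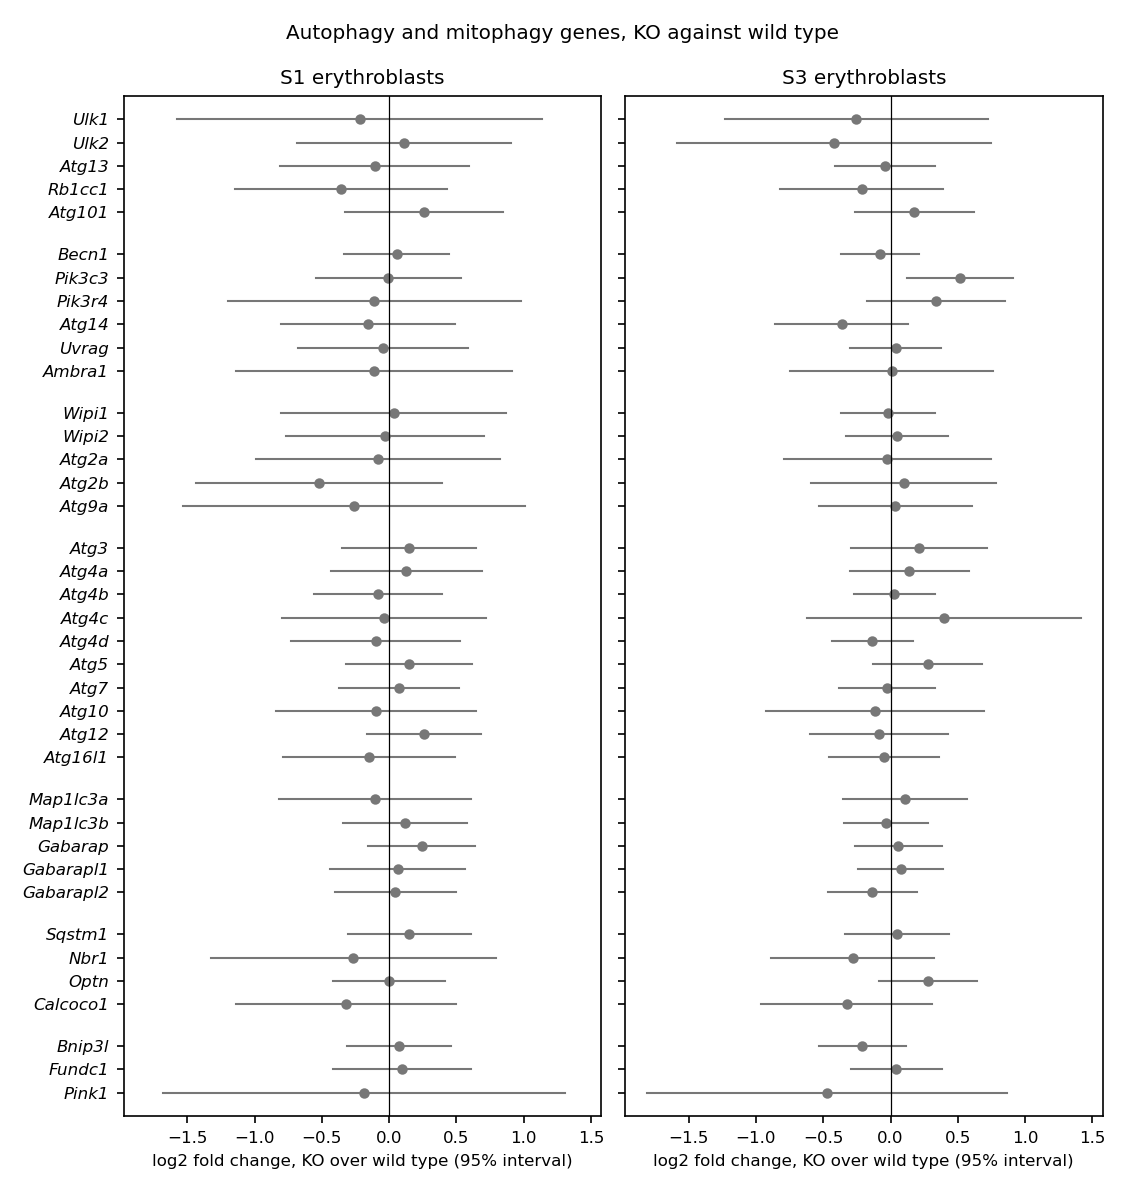
Log2 fold change of KO over WT for the 38 genes at S1 and at S3, with 95% confidence intervals from edgeR (2 KO and 4 WT embryos per stage). All intervals but that of Pik3c3 at S3 cross 0, the estimates at S3 run from −0.47 to 0.52, and no gene passed the adjusted threshold at either stage.

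At S1 no member passed the test of KO against WT (background 0.00712%, 1 of 14039 genes), and none had an unadjusted p under 0.05 (background 2.53%). Values ran from −0.52 for Atg2b to 0.26 for Atg101, with a median of −0.03, which turned to 0.15 without embryos 0 and 8. Only Atg12 and Gabarap did not overlap (background 9.84%). Atg12 was at 31.4 and 36.1 CPM in KO S1 and 28.6, 24.6, 30.1 and 30.3 in WT S1 (0.26 ± 0.18, adjusted p = 1, edgeR), and Gabarap at 63.8 and 60.8 against 55.2, 54.1, 56.4 and 46.1 (0.24 ± 0.17, adjusted p = 1, edgeR). The other 3 with the smallest p values overlapped WT: Atg2b was at 10.3 and 18.5 CPM in KO S1 (−0.52 ± 0.39), Rb1cc1 at 15.7 and 24.03 (−0.36 ± 0.34) and Atg101 at 61.5 and 46.9 (0.26 ± 0.25). Bnip3l stood at 191 and 213 CPM in KO S1 (0.07 ± 0.17), close to its WT S1 range of 179.7 to 207. Macrophage markers summed to 68.2 and 69.5 CPM in KO S1, of which Lyz2, a gene that granule cells also express, made up 52.0 and 45.3, while 9 of the 13 tested were lower in value than in WT (median −0.83). The granule genes summed to more than in any WT S1 library, and their part in these values was not tested. When the 2 stages were joined in a test of whether the stage change differed between KO and WT, no member passed (background 0.00742%, 1 of 13485 genes) and none had an unadjusted p under 0.05 (background 3.11%). For Bnip3l the difference in stage change was −0.28 ± 0.21 (95% confidence interval −0.73 to 0.17), and for Pik3c3 it was 0.52 ± 0.31 (unadjusted p = 0.112, edgeR).

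Het embryos were compared with the same WT libraries, so the Het and KO values share their controls. No member passed at S3 or at S1 (background 0% at both, 0 of 11746 and 0 of 13818 genes), and 1 member at each stage had an unadjusted p under 0.05 (background 3.18% and 4.26%). At S3 this was Map1lc3a, at 29.6 and 26.1 CPM in Het and 16.6, 22.8, 24.4 and 17.4 in WT (0.44 ± 0.19, adjusted p = 0.901, edgeR), and in KO S3 it was at 23.0 and 20.3. Its value was 0.23 without embryos 0 and 8, the lowest of the WT libraries, and 0.70 with sex in the model, where it was called (adjusted p = 0.00651, edgeR). At S1 it was Atg2b (−1.03 ± 0.38, adjusted p = 0.905, edgeR), at 12.9 and 7.59 CPM against 16.1, 26.8, 12.96 and 27.6. Libraries did not overlap for 3 members at S3 (background 13.2%) and 7 at S1 (background 18.8%). Pink1 at S3, 85.7 and 78.0 CPM, lay inside the lower end of the wide WT range (−1.15 ± 0.55, adjusted p = 0.901, edgeR), and with no filter on low counts it was called (−1.12, adjusted p = 0.0162), among 0.247% of all genes. The Het libraries stood level with WT embryos 1 and 5, and without embryos 0 and 8 the value was 0.0063. Both Het embryos are male, and for 20 members at S3 the WT males stood above the WT females. With sex in the model 9 members were called at S3 with edgeR, 1 higher and 8 lower, among 18.1% of all genes, and 11 with DESeq2, 1 higher and 10 lower, among 18.3%. Those 8 included Pink1 and Ulk1. The sex term there rests on the 4 WT embryos, so sex cannot be told apart from other differences between them. Their S1 libraries split by sex in globin and granule reads. In WT S3 globin reads were 10.8% and 11.8% in the males and 11.2% and 11.3% in the females, and granule sums were at most 4.85 CPM. Without embryos 0 and 8 only female WT and male Het embryos are left, so the sex term could not be fitted there, and the model without it, with the filter on low counts, called no member with or without those embryos. Het S1 libraries lay below the WT S1 range in summed late erythroid markers (617 to 818 CPM against 927 to 5220), hepatoblast markers (31.6 to 48.6 against 64.3 to 358) and megakaryocyte markers (23.1 to 25.3 against 36.6 to 69.6), and above it in granule genes. At S3 hepatoblast markers summed to 159 to 217 CPM in Het, below the WT S3 range of 218 to 971, with all 12 lower in value (median −1.31). Their part in the members' values was not tested.

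A further 50 genes of the pathway, from a fixed list of fusion factors, other early machinery, other receptors and regulators, were measured for comparison. In WT 25 were higher at S3 and 14 lower (background 30.6% and 35.0% of all genes, which the counts below are to be read against), with a median of 0.52. Autophagosome fusion factors were higher in 6 of 14 and lower in 2, other early machinery in 7 and 4 of 13, other receptors in 5 and 2 of 8, other mitophagy genes in 4 and 3 of 8, and transcriptional regulators in 3 and 3 of 7. Ncoa4, the receptor that sends ferritin to the lysosome, was at 74.1, 66.9, 67.4 and 115 CPM in WT S1 and at 1922, 1306, 1501 and 2359 in WT S3 (4.47 ± 0.26, adjusted p = 5.57e-07, edgeR). Vmp1, which helps to form the membrane, rose by 1.90 ± 0.13 (adjusted p = 9.99e-07, edgeR). Among the regulators, Foxo3, a transcription factor of autophagy genes, rose by 3.87 ± 0.22 and Gata1 by 1.46 ± 0.13, whereas Tfeb, the lysosomal regulator that mTORC1 holds in the cytoplasm, was lower by −1.28 ± 0.30 at under 5 CPM. In KO against WT at S3 none of the 46 that were tested was called. Bnip3, the relative of Bnip3l induced by hypoxia, was at 141 and 79.5 CPM in KO S3 and at 37.9, 46.5, 66.6 and 34.8 in WT S3. Both KO libraries were above WT and they differed from each other, and the difference was 1.26 ± 0.30 (unadjusted p = 0.00239, adjusted p = 0.157, edgeR). The next smallest p values were those of Tax1bp1, a cargo receptor at 604 and 673 CPM in KO S3 and 823, 723, 750.3 and 949 in WT S3 (−0.33 ± 0.15, adjusted p = 0.602, edgeR), and of Fundc2, a relative of Fundc1, at 151 and 119.7 against 96.6, 123, 111 and 97.7 (0.35 ± 0.16, adjusted p = 0.602, edgeR). Foxo3 (−0.15), Gata1 (−0.01) and Tfeb (−0.91 ± 0.42, adjusted p = 0.614, edgeR) were not called in that comparison.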

How the data were processed

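RNA from sorted S1 and S3 erythroblasts of 8 embryos was amplified with a SMARTer kit and sequenced, and the authors deposited raw counts per gene, made with STAR 2.7.9 and featureCounts 1.6.4 on mm39. SMARTer amplification can add technical spread between libraries, and counting without strand cannot separate reads of genes that overlap on opposite strands. The table has 55416 genes and 20 library columns, of which 4 match no sample of the labels and were not used. Ensembl IDs were given symbols from the GENCODE vM39 annotation (54749 matched). The members and lists were chosen with earlier results of these data known. Groups and embryo numbers were taken from GEO's labels. Litters were not given in the sources used here.

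Counts were tested with edgeR 4.0.16 (quasi-likelihood, TMM factors, genes with a mean normalized count above 10 in the libraries of the fit, Benjamini-Hochberg over all genes tested) in R 4.3.3. Stage changes in WT used the 8 WT libraries, genotypes were compared within a stage, the stage changes in KO and Het used a fit of all 16 libraries, and the interaction used the WT and KO libraries. SE was taken as the log2 fold change over the square root of F. Shares of paralogs were computed per library from CPM per kb and tested by 2-sided exact permutation with scipy 1.17.1. The fits were tested on simulated data. Library totals of 20666044 to 37609502 counts set the counting precision, and the spread between embryos is in the SE of each value. The S1 and S3 libraries of an embryo come from the same animal by the labels; the correlation of their deviations from group means was 0.03, 0.31, 0.44 and 0.45 in WT, 0.58 in KO and 0.08 in Het. Alternatives were DESeq2 1.42.0, other scalings and filters, sex, the embryo block and left-out embryos; plain library sizes, factors over all detected genes and leaving out WT embryos 0 and 8 together were chosen after seeing the data. Named genes were the 5 largest rises and falls among the calls, the 5 smallest p values in KO against WT, the ATG8 family, Bnip3l, Ulk1 and Sqstm1. Other members were named for their role, after their values were seen.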

Additional observations from a re-analysis of the deposited data

Results flagged for a closer look

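In the WT groups of 4 libraries, 8 of 76 combinations of member and group held a library far from the other 3 by Dixon's criterion, where chance alone gives about 1 in 20. Embryo 8 was the library concerned in 6 of the 7 at S1. It was high for Atg14 (11.6 CPM, the others at 6.68 to 7.38), Uvrag (31.8, the others at 17.4 to 19.6), Atg2a (13.1, the others at 5.39 to 6.69) and Atg4c (4.24, the others at 2.46 to 2.59). It was low for Map1lc3b (102 CPM, the others at 134 to 138) and Gabarapl2 (43.7, the others at 56.8 to 59.0). Embryo 1 was low for Gabarapl1 at S1 (39.9 CPM, the others at 59.2 to 63.0) and for Optn at S3 (73.4, the others at 96.8 to 97.5). Embryo 8 also had the lowest granule sum of the WT S1 libraries, and the part of that in these values was not tested.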

How the results depend on the processing

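Leaving out each embryo in turn gave 30 to 33 members called between stages in WT (23 to 26 higher, 7 to 8 lower), 26 in KO, 24 to 25 in Het, and 0 in every genotype comparison and the interaction. The embryo as a replicate block gave 26 higher and 9 lower in WT, 25 and 7 in KO and 24 and 7 in Het, and DESeq2 26 and 8, 25 and 6, and 24 and 7. With plain library sizes 13 members were lower in WT, 12 in KO and 13 in Het. The stage backgrounds given earlier belong to the main fits and cannot be set beside these counts. With sex in the model 1 member was called, as higher, in KO against WT at S3 (edgeR and DESeq2). In Het against WT at S3, 9 were called with edgeR (1 higher, 8 lower) and 11 with DESeq2 (1 higher, 10 lower), and 1 lower with no filter on low counts. At S1 DESeq2 with sex called 1 lower, among 5.9% of all genes. Without embryos 0 and 8 the median over members turned from −0.034 to 0.15 in KO against WT at S1, from −0.0056 to 0.11 at S3, and in Het from −0.0070 to 0.15 and from −0.072 to 0.033. Paralog shares called fell from 9 to 0 with the replicate block and to 0 without any 1 embryo, since 3 against 3 libraries cannot pass. Other causes were not tested.

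Signs turned in the following cases. Of these Atg101, Atg7 and Gabarapl1 passed the threshold with the other sign, with plain library sizes. Between stages in WT, Atg101 was −0.16 with upper-quartile factors, −0.018 with no filter and with factors over all detected genes, −0.999 with plain library sizes, −0.028 without embryos 0 and 8, and −0.088 to 0.14 with single embryos left out. With plain library sizes Ambra1 was −0.72, Atg7 −0.68, Atg16l1 −0.43 and Gabarapl1 −0.48. Uvrag was 0.035 without embryos 0 and 8 and −0.33 to 0.065 with single embryos left out. In KO against WT at S3, single left-out embryos gave Gabarap −0.020 to 0.12, Sqstm1 −0.041 to 0.14, Ulk1 −0.79 to 0.13 and Map1lc3b −0.10 to 0.019, and leaving out embryos 0 and 8 gave Map1lc3a −0.11, Gabarap −0.028, Ulk1 0.40 and Pink1 0.69. At S1 they gave Map1lc3a −0.23 to 0.046, Gabarapl1 −0.062 to 0.11, Map1lc3b −0.022 to 0.23, Gabarapl2 −0.055 to 0.096, Ulk1 −0.81 to 0.28, Bnip3l −0.029 to 0.14 and Pink1 −0.50 to 0.27, and leaving out embryos 0 and 8 gave Map1lc3a 0.091, Map1lc3b −0.0033, Gabarapl2 −0.081, Ulk1 0.60 and Pink1 0.88. Pink1 with sex was 0.10 (edgeR and DESeq2). In Het against WT at S3, Bnip3l ran from −0.12 to 0.087, and without embryos 0 and 8 it was 0.039, Ulk1 0.076, Sqstm1 0.033, Pink1 0.0063 and Atg2b 0.16. At S1 Bnip3l ran from −0.11 to 0.071, Sqstm1 from −0.10 to 0.15, Pink1 from −0.57 to 0.18 and Map1lc3a from −0.11 to 0.20, Sqstm1 with sex was −0.10 (edgeR) and −0.11 (DESeq2), Map1lc3a was −0.17 with sex (−0.165 and −0.173) and −0.00064 with upper-quartile factors, and without embryos 0 and 8 Ulk1 was 0.096 and Pink1 0.81. In the interaction Ulk1 was 0.078 with plain library sizes and −0.23 to 0.060 with single embryos left out.

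With 2 KO and 2 Het embryos, genotype differences of the size of the intervals given could not be seen. Without an embryo of a pair, the lone library was assumed to vary like the other groups.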
